A study of Mus musculus with 18 samples.

Results

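Livers of mice that had received the intestinal microbiota of AOS-dosed donors on top of a high-fat diet and STZ (A10-FMT) were compared with livers of healthy control mice (Con), to find which transcripts still differed from control liver. The A10-FMT and Con libraries were taken by their sample labels, 3 of each, which is 6 of the 18 liver RNA-seq libraries of the series. A gene was tested when its mean over these 6 libraries was at least 1 RPKM (reads scaled to the length of the gene and to the reads of the library), which held for 10033 of the 19057 genes in the deposited table. All animals were male ICR mice, an outbred stock, and liver was collected at 10 weeks of age. Con mice were kept on the regular diet with saline. A10-FMT mice ate a high-fat diet from week 3 to the end, received a single dose of 85 mg/kg of streptozotocin (STZ) at 5 weeks, and from 5 to 7 weeks were inoculated orally each day with small-intestinal content. This content was pooled from donor mice that had been given 10 mg/kg of alginate oligosaccharide (AOS), a breakdown product of the seaweed polysaccharide alginate, for 3 weeks. HS is the same diet and STZ with no transplantation, and Con-FMT the same diet and STZ with content from donors given water. Each has 3 libraries, and their levels are given beside some of the results. Where they are left out, a change from Con is not to be read as particular to A10-FMT. A10-FMT and Con thus differ in diet, STZ and transplantation at once, and the shares of these 3 treatments in a difference cannot be told apart from this comparison alone. The labels do not say whether the libraries of a group came from separate animals, so the p-values measure the spread between these libraries, and the sources used here do not say whether the mice had been fasted.

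STZ kills the insulin-producing beta cells of the pancreas, and the liver is a main target of insulin. Insulin switches on the transcription factor SREBP-1c and with it the genes of fatty acid synthesis, while the related factor SREBP-2 drives cholesterol synthesis when sterols are scarce. Fatty acids that reach the liver activate PPAR alpha, the receptor that raises the genes of fatty acid oxidation and ketone body production, and low insulin together with glucagon raises gluconeogenesis. The liver also runs a circadian clock, in which BMAL1 with CLOCK or NPAS2 activates genes through E-box sequences, the PER and CRY proteins repress this activity, and REV-ERB receptors repress the gene of BMAL1. During inflammation hepatocytes secrete acute-phase proteins such as serum amyloid A.

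One Con library stood out before any group was compared. For genes whose 3 Con libraries spanned at least 0.5 on the log2 scale, Con replicate 3 was the middle library in 88.8% of 922 genes, whereas the share of the most frequent middle library in the other 3 groups lay between 44.9% and 49.0%. Among 141 genes that differed by at least 1 log2 between Con replicates 1 and 2, Con replicate 3 lay between them for 139, at a median position of 0.528 on a scale where replicate 2 is 0 and replicate 1 is 1 (quartiles 0.482 and 0.592). Whether this library is independent of the other 2 was not tested further. Where it changes the number of list genes called between A10-FMT and Con by more than 1.5 times, the numbers with and without it are given. The calls of cell markers and the comparisons of HS and Con-FMT with Con were made only with this library included. Depth relative to the mean of the 18 libraries, read from the spacing of the low values of 51 genes, was 0.993 to 1.04 in A10-FMT and 0.989 to 1.03 in Con, but read numbers are unknown, so precision rests on the 3 libraries per group. Hepatocyte markers summed to 46507 to 55928 RPKM in A10-FMT and 46545 to 66066 in Con, and 0 of 6 were called. Markers of pancreatic acinar cells, which made up 21580 RPKM in Con-FMT replicate 3, summed to 32.2 to 37.8 RPKM in A10-FMT and 32.6 to 41.2 in Con. In bulk liver, fewer cells of a type and less RNA per cell cannot be told apart.

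In A10-FMT compared with Con, 489 genes (4.87% of those tested) were called higher and 545 (5.43%) lower. The counts called in each gene list below are to be read beside these shares. Called means an adjusted p under 0.05 from limma, a linear model fitted across all genes on log2(RPKM + 1) with the 12 libraries of Con, HS, A10-FMT and Con-FMT, which share an estimate of the spread (two-sided, Benjamini-Hochberg adjustment). All changes below are log2 differences on this scale, which understates the change of low genes. Before adjustment, 2626 genes had a p under 0.05. The libraries of the 2 groups did not overlap for 1443 genes higher in A10-FMT (14.4%) and 1803 genes lower (18%), and 1033 of the 1034 called genes were among these. For such genes a two-sided exact permutation test with 3 libraries a side gives p = 0.1, which is the smallest it can reach. The tested genes had a median log2 change of -0.02, and 94 higher and 117 lower genes changed by at least 1 on the log2 scale. Without Con replicate 3, 200 genes (1.99%) were called higher and 210 (2.09%) lower, and 409 of these 410 were among the 1034. Leaving out another library gave 208 to 437 higher and 306 to 451 lower genes, with the fewest higher without A10-FMT replicate 1 and the fewest lower without A10-FMT replicate 2. In HS compared with Con, 842 genes (8.39%) were higher and 113 (1.13%) lower, in Con-FMT compared with Con 1124 (11.2%) and 962 (9.59%), and in A10-FMT compared with HS 177 (1.76%) and 1458 (14.5%). The first 3 comparisons share the Con libraries and the last shares A10-FMT with the first, so they are set side by side and not counted against each other.

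**Figure D1:**
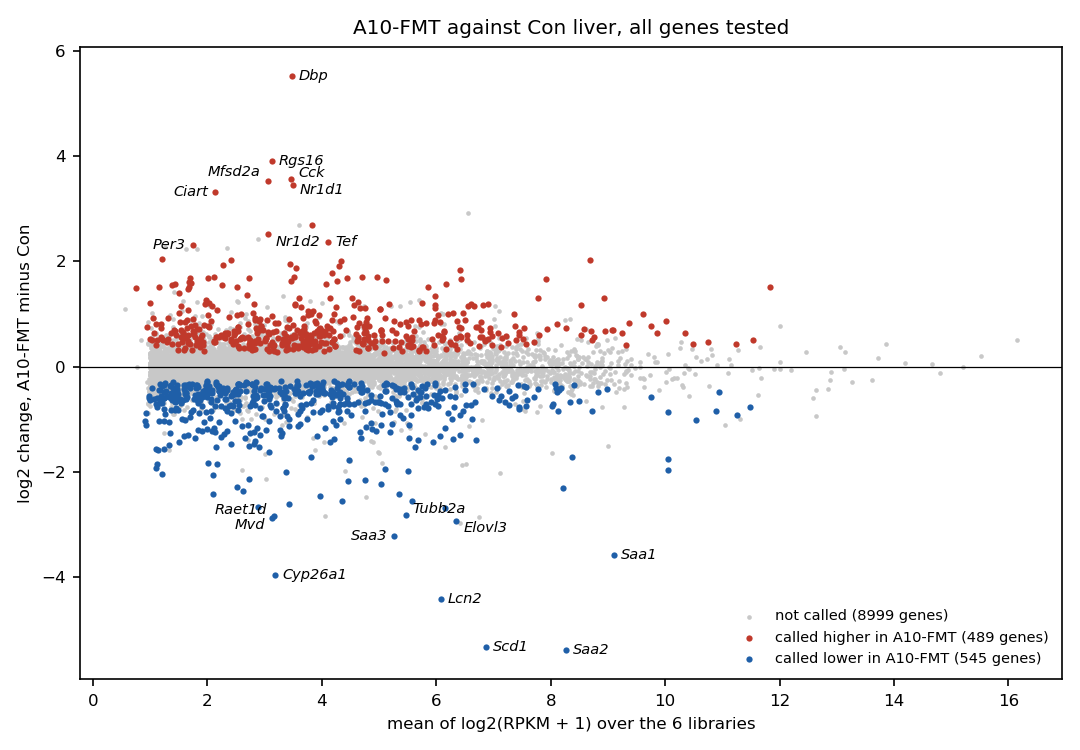
Log2 change of each tested gene, A10-FMT minus Con, against its mean log2(RPKM + 1) over the 6 libraries, with 1 point per gene. Red points are the 489 genes called higher, blue points the 545 called lower, grey points those not called, and the named genes are among the 10 called in each direction with the largest change of those whose groups do not overlap and whose higher group averages at least 5 RPKM. Dbp lies highest and Saa2 lowest of the named genes.

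The circadian clock was the list with the most called genes, and it held the gene with the largest increase. Of 20 clock genes tested, 10 were called higher and 5 lower, against the 4.87% and 5.43% of all genes. The first increase by size was Dbp (chr7:45705088-45710203, forward strand on GRCm38), the D-box binding factor that carries clock time to metabolic genes. In no group did the sources used here give the hour of tissue collection. The level of Dbp was 98.8, 48.8 and 86.2 RPKM in the A10-FMT libraries and 0.66, 0.58 and 0.68 RPKM in the Con libraries, with a difference of 5.53 on the log2 scale (standard error 0.22, adjusted p = 1.56e-07 from limma) and a ratio of group means of 122. The lowest A10-FMT library was thus far above every Con library. In HS, Dbp was at 1.79, 2.22 and 1.17 RPKM, and in Con-FMT at 51.8, 55.5 and 53 RPKM, so that both recipient groups were high and both groups without transplantation low, and the test of A10-FMT against HS gave a log2 change of 4.81 (adjusted p = 7.48e-07).

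The other factors of the same family were higher too. Tef (chr15:81802421-81826863, forward strand) was at 46, 30.4 and 40 RPKM in A10-FMT against 5.14, 8.39 and 6.6 in Con (log2 change 2.37, standard error 0.22, adjusted p = 1.65e-04 from limma). Hlf, the remaining member, was at 12.5, 10.8 and 10.1 RPKM against 5.84, 5.87 and 5.77 (log2 change 0.83, adjusted p = 0.0067). In Con-FMT, Hlf was at 7.1, 4.31 and 6.65 RPKM and its change from Con was 0.02 (adjusted p = 0.952), while Tef was at 24.4, 26.6 and 42.3 RPKM with a change of 2.04 (adjusted p = 1.47e-04).

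The repressors of the clock were mostly higher. Nr1d1 (chr11:98767932-98775333, reverse strand), which encodes REV-ERB alpha, was at 43.7, 33.3 and 32.5 RPKM in A10-FMT and 1.22, 3.68 and 2.72 in Con (log2 change 3.46, standard error 0.32, adjusted p = 1.65e-04 from limma). Nr1d2, which encodes REV-ERB beta, was at 22.4, 16 and 19 RPKM against 2.05, 3.03 and 2.49 (log2 change 2.51, adjusted p = 1.86e-05). These receptors were the 2 clock genes called higher in HS as well, at 17.2, 20.1 and 27 RPKM for Nr1d1 and 8.88, 8.41 and 8.18 RPKM for Nr1d2. Ciart (chr3:95878503-95882251, reverse strand), a repressor of CLOCK and BMAL1, rose from 0.35, 0.36 and 0.45 RPKM in Con to 17.9, 8.82 and 13.2 in A10-FMT (log2 change 3.32, adjusted p = 4.72e-06) and stood at 0.32, 0.42 and 0.32 RPKM in HS, near the level of Con. Per3 was at 8.12, 4.46 and 7.25 RPKM against 0.18, 0.81 and 0.58 in Con (log2 change 2.31, adjusted p = 7.13e-04), and Per1 at 6.49, 4.01 and 8.87 RPKM against 0.44, 2.34 and 1.32 (log2 change 1.68, adjusted p = 0.0109). Both genes encode PERIOD proteins, and their A10-FMT libraries did not overlap Con. Usp2, a ubiquitin protease whose transcript follows the clock, was at 9.61, 8.91 and 10.8 RPKM against 1.31, 2.01 and 1.66 (log2 change 2.02, adjusted p = 3.02e-04). Cry2, a cryptochrome, completed the 10 higher genes at 9.88, 6.97 and 8.56 RPKM against 3.82, 5.63 and 4.88 (log2 change 0.71, adjusted p = 0.0109).

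The activators of the clock were lower. Arntl (chr7:113207465-113314126, forward strand), the gene of BMAL1, was at 1.22, 3.11 and 0.91 RPKM in A10-FMT and 10.1, 12.9 and 12.2 in Con (log2 change -2.29, standard error 0.35, adjusted p = 0.00305 from limma). Npas2, an alternative partner of BMAL1, was at 0.03, 0.41 and 0.03 RPKM against 2.9, 3.48 and 2.95 (log2 change -1.84, adjusted p = 2.17e-04). Clock was at 2.69, 3.39 and 2.37 RPKM against 4.94, 6 and 5.68 (log2 change -0.78, adjusted p = 0.00267). No library of A10-FMT reached the lowest Con library in these 3 genes, and in HS they were at 8.84 to 13.4 RPKM for Arntl, 1.48 to 1.87 for Npas2 and 6.14 to 6.91 for Clock, none of them called against Con. Cry1, a repressor whose transcript peaks later than that of the PER genes, was also lower, at 3.41, 3.2 and 3.16 RPKM against 8.45, 14 and 10.5 (log2 change -1.47, adjusted p = 0.00145). Nfil3, which competes with DBP, TEF and HLF at the D-box, was at 7.89, 14 and 5.5 RPKM against 23.7, 21.2 and 23.1 (log2 change -1.31, adjusted p = 0.0199) and was the only called clock gene that lost its call without Con replicate 3 (adjusted p = 0.0725). The 5 clock genes not called included Bhlhe40, Csnk1d and Rora, and also Per2, which, at 7.47, 5.44 and 11.6 RPKM against 1.68, 6.92 and 4.27, overlapped between the groups (log2 change 0.87, adjusted p = 0.155).

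Against HS, 10 of the 20 clock genes were higher in A10-FMT and 6 lower. In Con-FMT compared with Con, 10 were higher and 5 lower, and in HS compared with Con 2 were higher and 2 lower. The list had a median log2 change of 0.77 in A10-FMT, 0.60 in Con-FMT and 0.07 in HS, each against Con. The members split into opposite directions, so the median does not describe any single gene.

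**Figure D2:**
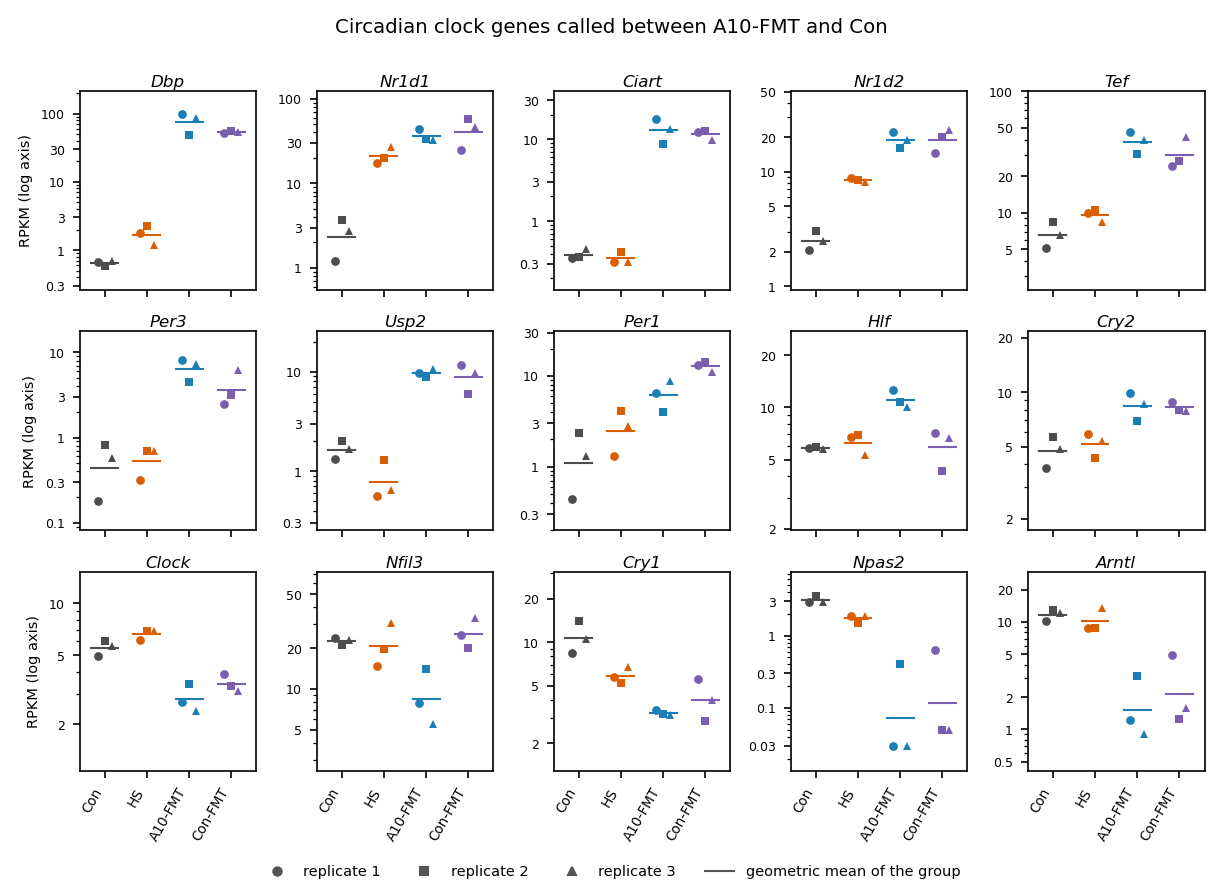
RPKM on a log axis of the 15 clock genes called between A10-FMT and Con, in the 3 libraries each of Con, HS, A10-FMT and Con-FMT, ordered by log2 change from Dbp to Arntl. Each symbol is 1 library and each line a geometric mean of the group. For Dbp, Ciart, Tef and Usp2 the libraries of A10-FMT and Con-FMT lie above all those of Con and HS, and for Arntl and Clock below them.

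Most genes of the clock list were called, some higher and some lower. For some of them, promoter stretches that hold the sequence a clock factor binds are shown. Windows of 250 bases before each gene start, from RefSeq on GRCm38.p6, were searched on both strands for the E-box CACGTG, the D-box TTANGTAA bound by DBP, TEF, HLF and NFIL3, and the element TAGGTCA bound by REV-ERB and ROR receptors. The E-box was present for 3 of the 10 higher clock genes (Ciart, Per1 and Tef) and 1 of the 5 lower (Cry1), against 6.02% of 32851 windows. Among these clock genes, the D-box was present for Per3 alone, with 2 copies, against 2.06% of windows, and the REV-ERB and ROR element for Nfil3 alone, against 2.23%. A gene with several starts was counted when any of its windows held the letters, so a share of genes is not like a share of windows. Shown is 1 stretch for each of Ciart, Per1, Tef, Cry1 and Per3. Those of Per1 and Tef lie between the annotated ends of the gene. A further Tef stretch and that of Nfil3, also within the gene ends, are not shown. A window with no match says only that these letters were not in it. The matches are in capitals, and each sequence runs 5′ to 3′ on the strand of its gene.
Ciart, E-box, chr3:95882247-95882364, reverse strand: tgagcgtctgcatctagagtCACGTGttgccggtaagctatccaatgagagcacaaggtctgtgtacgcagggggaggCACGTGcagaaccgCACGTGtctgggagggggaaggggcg
Per1, E-box, further start inside the gene, chr11:69098763-69098808, forward strand: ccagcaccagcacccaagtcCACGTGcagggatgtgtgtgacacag
Tef, E-box, further start inside the gene, chr15:81811256-81811301, forward strand: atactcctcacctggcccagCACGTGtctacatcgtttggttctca
Cry1, E-box, chr10:85185089-85185134, reverse strand: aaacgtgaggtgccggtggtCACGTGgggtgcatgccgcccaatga
Per3, D-box, chr4:151044796-151044890, reverse strand: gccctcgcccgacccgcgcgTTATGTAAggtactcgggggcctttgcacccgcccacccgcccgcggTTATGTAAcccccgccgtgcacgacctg
Ciart held 3 copies of the E-box in the stretch shown. Its transcript and those of Per1 and Tef rose, and that of Cry1, with the same letters, fell.

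Cholesterol synthesis was the list with the lowest median. All 25 genes tested had a negative log2 change, with a median of -1.62, and 9 were called lower and 0 higher. The libraries of the groups did not overlap for 23 of the 25 genes, all lower in A10-FMT. Of all tested genes, 5.43% were called lower and 18% were lower without overlap. Hmgcs1 (chr13:119690379-119708260, forward strand), which makes the HMG-CoA that enters the pathway, was at 26.6, 33.1 and 22.7 RPKM in A10-FMT and 172, 193 and 175 in Con (log2 change -2.68, standard error 0.68, adjusted p = 0.0283 from limma). Mvd, the mevalonate diphosphate decarboxylase, was at 1.29, 2.68 and 3.04 RPKM against 18.2, 27 and 24.3 (log2 change -2.88, adjusted p = 0.0225). Pmvk, the kinase before it, was at 10.5, 12.6 and 12.6 RPKM against 40.5, 74.8 and 57.8 (log2 change -2.15, adjusted p = 0.0118), and Dhcr7, which makes the last step to cholesterol, at 14.9, 16.4 and 18.9 RPKM against 56.6, 76.1 and 68.2 (log2 change -1.94, adjusted p = 0.0293). Each of these genes was lower in every A10-FMT library than in any Con library. Srebf2, the gene of SREBP-2 itself, was lower as well, at 6.57, 6.51 and 6.81 RPKM against 12.5, 14.2 and 14.2 (log2 change -0.93, adjusted p = 0.0415). The other 4 called genes were Lss, Sc5d, Tm7sf2 and Acat2, with log2 changes between -1.62 and -1.22.

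The calls of this list moved with the libraries that set the spread. HS replicate 1 stood far below HS replicates 2 and 3 in the pathway, for example at 18.9 RPKM for Hmgcs1 against 176 and 113, and it enters the estimate of the spread. With the 6 libraries of A10-FMT and Con alone in the fit, 22 of the 25 genes were called lower, and without Con replicate 3 only Pmvk was (adjusted p = 0.0491), while the median stayed at -1.60. In Con-FMT compared with Con, 19 genes were lower and the median was -2.04, and in HS compared with Con 2 were lower and the median was -1.16. Against HS, 0 genes of the list were called in A10-FMT and the median was -0.47. The sterol regulatory element TCACNCCAC, which SREBP proteins bind, was found in the promoter window of 1 of the 9 called genes, against 1.05% of all windows. The E-box was found for 2 of the same 9 genes (Dhcr7 and Sc5d) and the REV-ERB and ROR element for 1 (Dhcr7), so these letters were not particular to clock genes. The sterol regulatory element is shown as the part of the Hmgcs1 promoter, on the forward strand, that holds it, with the match in capitals.
Hmgcs1, chr13:119690194-119690242, forward strand: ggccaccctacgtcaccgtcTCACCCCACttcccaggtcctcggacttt

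Of 17 genes of fatty acid synthesis tested, 3 were called lower and 0 higher, with a median log2 change of -0.49. The largest decrease was in Scd1 (chr19:44394455-44407879, reverse strand), the desaturase that makes oleic acid, which was at 7.09, 10.1 and 69.2 RPKM in A10-FMT and 676, 815 and 740.04 in Con (log2 change -5.33, standard error 0.69, adjusted p = 0.00131 from limma). A10-FMT replicate 3 was well above the other two and still far below the lowest Con library. Scd1 was also low in HS and in Con-FMT, at 17.4, 38.4 and 73.3 RPKM in HS and 21.5, 12.7 and 21.5 in Con-FMT. Acacb, the acetyl-CoA carboxylase at the mitochondrion, was at 1.65, 1.26 and 2.37 RPKM against 9.94, 16.8 and 13.1 (log2 change -2.36, adjusted p = 0.00222), and Acss2, an acetyl-CoA synthetase of the cytosol, at 23.1, 19.4 and 23.9 RPKM against 51.1, 146 and 96.5 (log2 change -1.98, adjusted p = 0.0077). All 3 kept their call without Con replicate 3. Fasn, the fatty acid synthase, was not called, at 12.3, 12.2 and 32.6 RPKM against 40.5, 72.1 and 57.1 (adjusted p = 0.125), although the groups did not overlap, and neither were Srebf1 (62.1, 48.8 and 79 RPKM against 29.9, 58.2 and 44.4, adjusted p = 0.272) and Thrsp (338, 357 and 704 RPKM against 164, 322 and 246, adjusted p = 0.434), whose A10-FMT means were above Con. Thrsp, a factor that promotes lipogenesis, was at 6.19, 50 and 65.2 RPKM in HS, and the test of A10-FMT against HS gave a log2 change of 3.93 (adjusted p = 0.00453). With only the 6 libraries of A10-FMT and Con in the fit, 9 genes of the list were called lower. Elovl3, a fatty acid elongase grouped with the genes biased to males, was at 16.6, 44.1 and 31.4 RPKM against 209, 228 and 239 (log2 change -2.94, adjusted p = 0.00788).

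**Figure D3:**
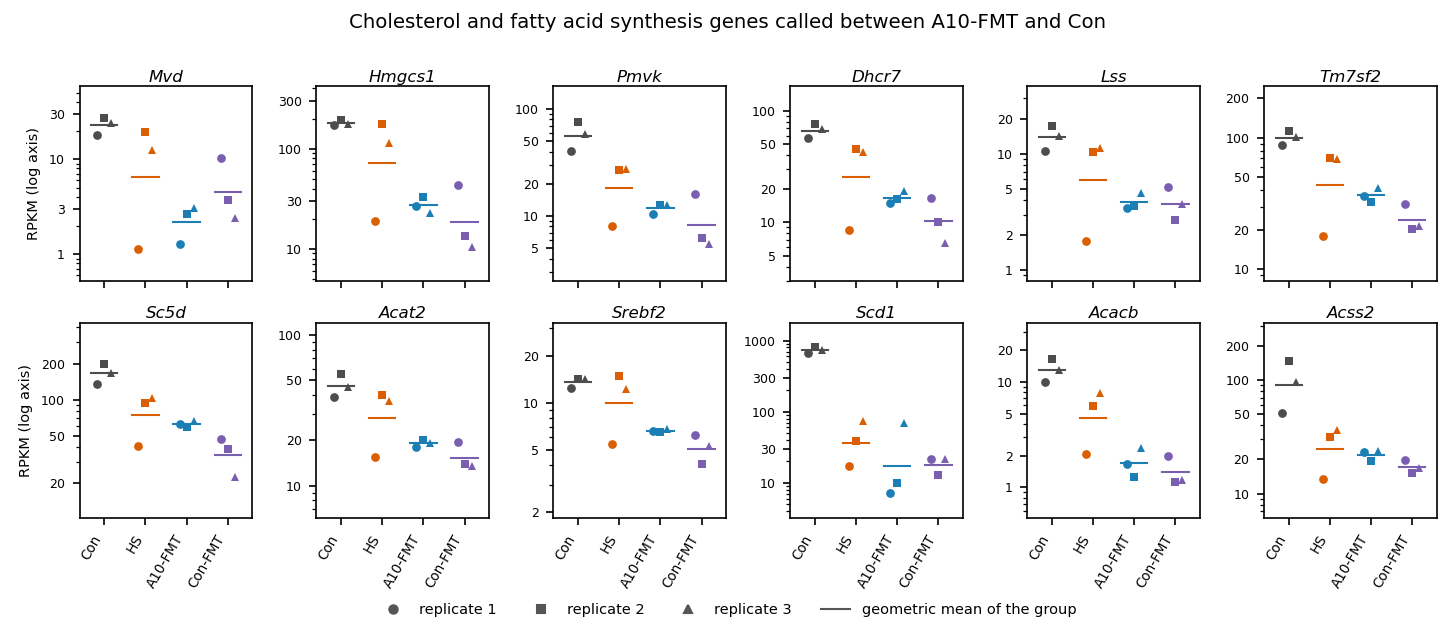
RPKM on a log axis of the 9 cholesterol synthesis genes (from Mvd to Srebf2) and the 3 fatty acid synthesis genes (Scd1, Acacb and Acss2) called between A10-FMT and Con, in the 3 libraries of each group. Symbols are libraries and lines geometric means of the groups. The A10-FMT libraries lie below the Con libraries in all 12 panels, and HS replicate 1 lies below the other 2 HS libraries in all of them.

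Genes that store and handle fat moved in both directions. Of 18 genes of triglyceride synthesis, lipolysis and lipid droplets, 5 were higher and 1 lower. Lpin1, a phosphatidic acid phosphatase, was at 10.5, 24.3 and 37.2 RPKM in A10-FMT and 4.2, 5.94 and 5.22 in Con (log2 change 1.88, adjusted p = 0.0307 from limma), and in Con-FMT it was at 114, 118 and 108 RPKM. Dgat2, which makes the last step to triglyceride, was at 249, 212 and 255 RPKM against 129.7, 149 and 147 (log2 change 0.74, adjusted p = 0.00274), and it stood at 119.9, 139 and 146 RPKM in HS, within or below the range of Con. Agpat2, which makes phosphatidic acid, was the lower gene (log2 change -0.55, adjusted p = 0.00332). Without Con replicate 3, 2 of the 18 genes were higher and 1 lower.

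Lipoprotein and sterol transport held 4 higher and 2 lower genes of 22, and 3 and 1 without Con replicate 3. Abcg5 and Abcg8, whose proteins form the pump that exports sterol into bile, were both higher. Abcg5 was at 57.4, 52.6 and 56.1 RPKM in A10-FMT, 17.7, 14.7 and 16.6 in Con and 74.5, 28.9 and 32.2 in HS (A10-FMT minus Con 1.71, adjusted p = 0.00434 from limma). Abcg8 was at 36.9, 40.8 and 35.8 RPKM in A10-FMT, 11.2, 11.3 and 10.9 in Con and 38.6, 16.1 and 20.5 in HS (A10-FMT minus Con 1.68, adjusted p = 0.0027). HS replicate 1 was above the A10-FMT libraries for Abcg5 and within their range for Abcg8, and HS replicates 2 and 3 lay between A10-FMT and Con in both genes. Apoa4, an apolipoprotein of triglyceride-rich particles, was at 1196, 651 and 737 RPKM against 218, 183 and 214 (log2 change 2.02, adjusted p = 0.00282). Lpl, the lipoprotein lipase, was lower at 3.48, 3.14 and 3.44 RPKM against 9.22, 12.1 and 10.7 (log2 change -1.42, adjusted p = 1.65e-04). Of these 4 genes, Lpl alone was also called against HS, where it was at 7.02, 8.99 and 8.41 RPKM (log2 change A10-FMT minus HS -1.06, adjusted p = 0.0013). All 4 kept their call without Con replicate 3.

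Transcripts of fatty acid oxidation were in part higher. All 21 genes of mitochondrial beta-oxidation had a positive log2 change with a median of 0.51, and 7 were called higher and 0 lower. Cpt1a (chr19:3322334-3385733, forward strand), which carries fatty acids toward the mitochondrial matrix and sets the pace of the pathway, was at 112, 82.8 and 87.4 RPKM in A10-FMT and 39.9, 42.9 and 40.5 in Con (log2 change 1.16, standard error 0.19, adjusted p = 0.00393 from limma). Eci2, an isomerase for unsaturated fatty acids, was at 163, 158 and 129 RPKM against 60.5, 71.7 and 68.7 (log2 change 1.15, adjusted p = 0.00947), and Hadhb, a subunit of the trifunctional protein, at 129.6, 107 and 98.6 RPKM against 58.7, 75.5 and 65.7 (log2 change 0.73, adjusted p = 0.0221). The peroxisomal pathway was similar in size, with 7 of 21 genes higher, 0 lower and a median of 0.49. Slc27a2, a fatty acid transporter, was at 616, 563 and 482 RPKM against 237, 248 and 248 (log2 change 1.17, adjusted p = 0.0047), and Decr2, a reductase of unsaturated fatty acids, at 95.4, 85.7 and 94.7 RPKM against 33.5, 51.8 and 42.1 (log2 change 1.12, adjusted p = 0.00289). In HS compared with Con, 10 mitochondrial and 8 peroxisomal genes were higher, with medians of 0.67 and 0.56, and against HS 0 of the 21 mitochondrial genes were called in A10-FMT. Without Con replicate 3, the counts in A10-FMT were 2 mitochondrial genes and 4 peroxisomal ones, and with each library scaled to the same median 13 and 8.

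Transcripts of ketone body production and of the other PPAR alpha targets were in part higher. Of 8 genes of ketone body production 3 were higher, among them Bdh1, which makes beta-hydroxybutyrate, at 151, 108 and 121 RPKM in A10-FMT against 49.9, 71.9 and 62.8 in Con (log2 change 1.03, adjusted p = 0.00808 from limma). Of 19 other PPAR alpha targets 3 were higher and 2 lower, with a median log2 change of 0.57. Angptl4, a secreted inhibitor of lipoprotein lipase, was at 41.6, 56.7 and 41.8 RPKM against 17.3, 25 and 21.3 (log2 change 1.10, adjusted p = 0.0284), and Pdk4, the kinase that shuts off pyruvate dehydrogenase, was lower at 0.65, 1.02 and 0.34 RPKM against 1.87, 2.92 and 2.38 (log2 change -1.03, adjusted p = 0.00852). The classical targets Cyp4a10 and Cyp4a14, close paralogs whose reads the mapping could have shared, were not called. Cyp4a10 was at 48.1, 16.4 and 4.99 RPKM in A10-FMT, 1.29, 2.76 and 2.77 in Con and 241, 182 and 35.5 in HS (A10-FMT minus Con 2.43, adjusted p = 0.0902, A10-FMT minus HS -2.77, adjusted p = 0.0453), and its libraries spread widely in A10-FMT and in HS. In HS compared with Con, 10 of these 19 targets were higher and 1 lower, with a median of 1.06. Without Con replicate 3, 0 of the 3 higher targets and 2 of the 3 higher genes of ketone body production kept their call.

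Of 12 genes of gluconeogenesis, 5 were called higher and 0 lower. Pck1 (chr2:173153048-173159273, forward strand), the enzyme that commits oxaloacetate to glucose, was at 632, 815 and 876 RPKM in A10-FMT and 287, 342 and 302 in Con (log2 change 1.31, standard error 0.13, adjusted p = 2.37e-04 from limma). It was higher again in HS, at 1084, 1045 and 941 RPKM, and the test of A10-FMT against HS gave -0.41 (adjusted p = 0.049). Fbp1, fructose bisphosphatase, was at 959.9, 837 and 855 RPKM against 426, 554 and 508 (log2 change 0.84, adjusted p = 0.00951), and Foxo1, the factor that insulin holds out of the nucleus, at 7.43, 8.03 and 8.32 RPKM against 4.65, 5.71 and 5.22 (log2 change 0.53, adjusted p = 0.00476). Slc37a4, which carries glucose 6-phosphate to the enzyme that releases glucose, was higher as well (log2 change 0.68, adjusted p = 0.0246). Of the 12 genes 3 were higher without Con replicate 3, and Slc37a4 was not among them (adjusted p = 0.0714).

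Genes of glucose uptake, glycolysis and glycogen were called in both directions, with 4 of 20 higher and 3 lower. Gys2, the glycogen synthase of liver, was at 102, 96.2 and 90.8 RPKM in A10-FMT, 26.3, 41 and 33.7 in Con and 47.8, 42.9 and 37.9 in HS. The log2 change was 1.51 against Con (adjusted p = 1.65e-04 from limma) and 1.16 against HS (adjusted p = 0.0013). Ugp2, which makes the UDP-glucose that glycogen synthase uses, was at 159.9, 146 and 133 RPKM against 56.1, 72.7 and 62.4 (log2 change 1.19, adjusted p = 5.26e-04), and Slc2a2, the glucose transporter GLUT2, at 129, 99.1 and 108 RPKM against 41, 71.8 and 53.8 (log2 change 1.03, adjusted p = 0.00646). The A10-FMT libraries of these genes lay above all Con libraries. Lower were Ppp1r3b (log2 change -1.10), which targets phosphatase to glycogen, Pfkfb1 (-0.84) and Pgk1 (-0.41), with adjusted p of 0.0343, 0.0249 and 0.0356, and none of these 3 kept its call without Con replicate 3. Trib3, an inhibitor of the insulin signalling kinase AKT, was at 11.5, 7.44 and 7.06 RPKM against 1.32, 1.65 and 1.44 (log2 change 1.94, adjusted p = 4.67e-04).

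Acute-phase genes were lower, with 11 of 25 called lower and 0 higher and a median log2 change of -0.82. The Con libraries were far apart in these genes. Saa2 was at 7018, 300.04 and 3826 RPKM in Con replicates 1 to 3 and at 54.9, 38.9 and 48.1 RPKM in A10-FMT (log2 change -5.39, standard error 0.90, adjusted p = 0.00456 from limma). Saa1, a near-identical neighbour with which it may share reads, was at 6422, 296 and 3569.8 RPKM in Con and 149.9, 148 and 179 in A10-FMT (log2 change -3.57, adjusted p = 0.0295). Lcn2, a siderophore-binding protein of the acute phase, was at 1043, 47.5 and 612 RPKM in Con and 20.8, 10.3 and 11.8 in A10-FMT (log2 change -4.42, adjusted p = 0.0175). In all 3 genes Con replicate 1 was highest, replicate 2 was lowest and closest to A10-FMT, and replicate 3 lay between them. The fibrinogen genes showed the same order within a narrower span, with Fgg at 3951, 2770.4 and 3395 RPKM in Con and 1917, 1903 and 1521 in A10-FMT (log2 change -0.91, adjusted p = 0.00612), and Apcs, serum amyloid P, was at 1160.2, 313 and 788 RPKM against 142, 154 and 105 (log2 change -2.31, adjusted p = 0.00915).

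Without Con replicate 3, 4 of the 11 genes kept their call (Saa2, Fgg, Apcs and, at the threshold, Fga). The comparison of A10-FMT with HS called 1 gene of the list higher and 1 lower, and in HS compared with Con 4 were lower, among them Saa2 at 133, 87.6 and 33.3 RPKM and Saa1 at 354, 162 and 67.3 RPKM. In Con-FMT the picture differed, with 5 genes called higher than Con and 1 lower, and Saa1 at 1001, 1815 and 1519 RPKM. Other inflammatory transcripts were highest in Con replicate 1 as well. Cd14, a receptor for bacterial lipopolysaccharide, was at 17.4, 1.95 and 10.4 RPKM in Con and 1.3, 1.41 and 1.41 in A10-FMT (log2 change -1.84, adjusted p = 0.0392, and 0.145 without Con replicate 3), and neutrophil markers summed to 10.4, 2.98 and 7.49 RPKM in Con and 0.92, 1.14 and 2.28 in A10-FMT, with 1 of the 2 that were tested called lower. Ly6g and Camp, which define neutrophils, were at most 0.27 RPKM in these 6 libraries. Kupffer cell and macrophage markers summed to 64.3 to 96.7 RPKM in Con and 46.2 to 58.7 in A10-FMT, with 2 of 8 called lower. The part of these cells in the acute-phase result was not tested. Il1b, a cytokine gene, did not follow the order of the Con libraries, at 1.66, 2.44 and 2.45 RPKM against 0.51, 0.72 and 0.44 in A10-FMT (log2 change -1.03, adjusted p = 0.00232, and 0.0172 without Con replicate 3). Cd9, a tetraspanin, was at 16.2, 12.6 and 11.2 RPKM against 29.8, 23.8 and 28.9 (log2 change -1.0, adjusted p = 0.00442).

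**Figure D4:**
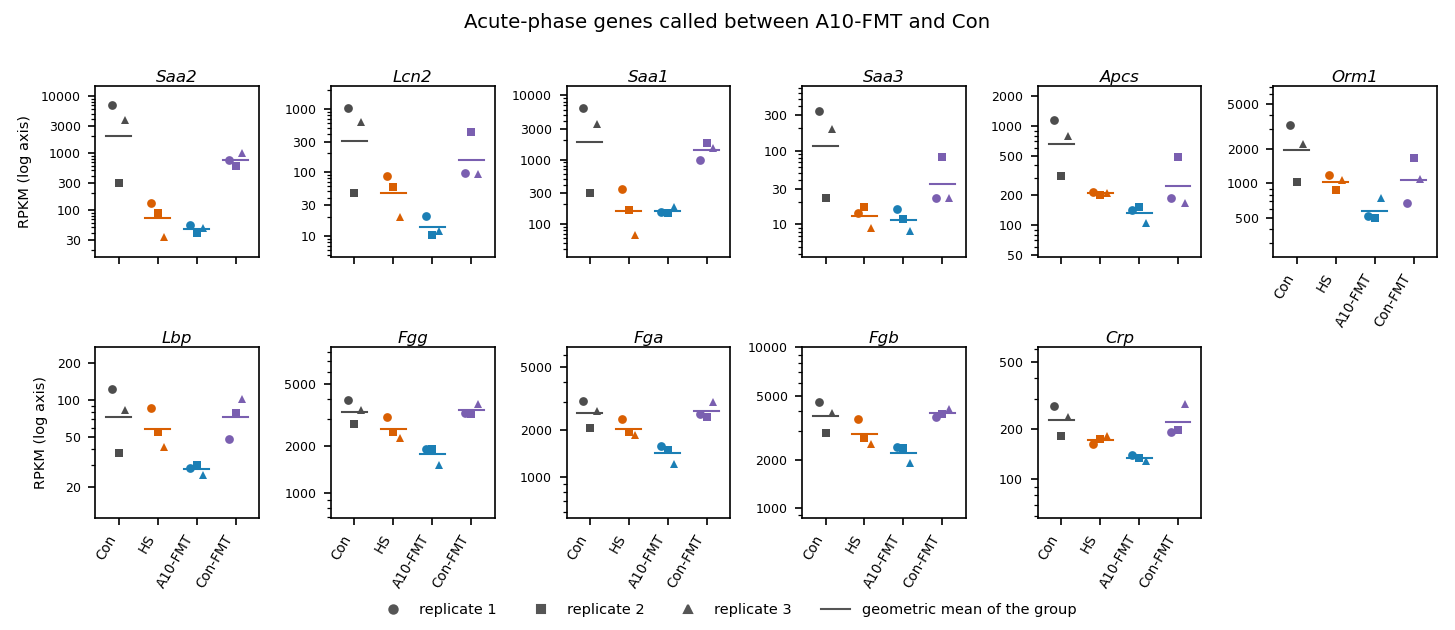
RPKM on a log axis of the 11 acute-phase genes called lower in A10-FMT than in Con, in the 3 libraries of Con, HS, A10-FMT and Con-FMT. Symbols are libraries and lines geometric means of the groups. In every panel Con replicate 1 (circle) is the highest Con library, replicate 2 (square) the lowest and replicate 3 (triangle) between them, and the A10-FMT libraries lie below all 3.

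Interferon-stimulated genes, MHC genes and fibrosis genes gave few or no calls against Con, where 4.87% of all genes were called higher and 5.43% lower. In lists this short, such counts differ little from these shares. Of 23 interferon-stimulated genes, 0 were higher and 1 (Stat2, log2 change -0.46, adjusted p = 0.0426 from limma, and 0.145 without Con replicate 3) was lower, with a median of 0.05. In HS 5 were higher than in Con, with a median of 0.65, and 10 were lower in A10-FMT than in HS, with a median of -0.80. All tested genes had medians of 0.14 and -0.16 in these comparisons, and 14.5% were called lower in A10-FMT than in HS. Usp18, which dampens interferon signalling, was at 1.85, 2.4 and 2.76 RPKM in A10-FMT, 2.17, 1.78 and 2.71 in Con and 9.44, 8.07 and 9.25 in HS, and the test of A10-FMT against HS gave -1.58 (adjusted p = 0.00425). None of 19 MHC and antigen presentation genes and none of 13 fibrosis genes tested were called by limma, and the first 2 members of these lists, H2-K1 (adjusted p = 0.214) and H2-D1 (adjusted p = 0.358), Col1a1 (adjusted p = 0.362) and Col1a2 (adjusted p = 0.225), stand for them. Col1a1 was at 2.53, 1.4 and 1.54 RPKM in A10-FMT against 1.04, 0.64 and 1.08 in Con and Col1a2 at 4.72, 2.54 and 3.15 RPKM against 1.87, 1.79 and 1.82, so that the groups did not overlap in either gene. Of the 13 fibrosis genes, 7 were higher and 0 lower without overlap, beside 14.4% and 18% of all genes. The fibrosis list had a median log2 change of 0.33 and the MHC list of 0.06. Stellate cell markers summed to 90.4 to 113 RPKM in A10-FMT and 74.3 to 85.9 in Con, with 1 of 7 called higher. Of 39 oxidative phosphorylation genes, 0 were called in A10-FMT, with a median of 0.06 (Ndufa1 at an adjusted p of 0.866 and Ndufa2 of 0.817). Of 18 immediate-early genes 0 were called either, with a median of 0.49 (Fos at an adjusted p of 0.28 and Fosl2 of 0.972). Egr1, Fos, Jun and Atf3 were higher in A10-FMT replicate 3 than in replicates 1 and 2, with Egr1 at 3.13, 2.75 and 79.4 RPKM in A10-FMT and 8.5, 6.35 and 7.1 in Con. Of all tested genes 2626 had an unadjusted p under 0.05, so a list without calls does not show that its genes did not differ. With only the 6 libraries of A10-FMT and Con in the fit, 3 fibrosis genes, 2 immediate-early genes and 1 MHC gene were called.

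Chaperones of the endoplasmic reticulum were in part lower than in Con. Of 24 genes of the list, 6 were lower and 2 higher, and the median log2 change was -0.38, compared with 0.15 in HS (3 higher, 0 lower) and 0.48 in Con-FMT (12 higher, 0 lower), each against Con. Against HS, 17 of the 24 were lower in A10-FMT and 1 higher, beside 14.5% and 1.76% of all genes. The median of the list against HS was -0.64, beside -0.16 for all genes. Calr, the calcium-binding chaperone calreticulin, was at 327, 297 and 316 RPKM in A10-FMT, 552, 588 and 559.9 in Con and 417, 584 and 595 in HS (A10-FMT minus Con -0.85, standard error 0.13, adjusted p = 0.00282 from limma). Pdia3, a protein disulphide isomerase, was at 153, 138 and 144 RPKM against 238, 251 and 244 (log2 change -0.75, adjusted p = 0.00442), and Sdf2l1, a small cofactor of the chaperone BiP, at 7.74, 11.7 and 14.3 RPKM against 38.9, 39.7 and 41.5 (log2 change -1.78, adjusted p = 0.00424). These 3 were the lower genes that kept their call without Con replicate 3, where 1 gene was higher. The 2 higher genes act in the disposal of misfolded proteins. Herpud1 was at 157, 151 and 204 RPKM against 68.8, 79.5 and 75 (log2 change 1.17, adjusted p = 0.00476) and Derl3 at 6.84, 5.55 and 2.88 RPKM against 2.38, 0.73 and 1.88 (log2 change 1.19, adjusted p = 0.0332, and 0.08 without Con replicate 3). Hspa5, the gene of BiP, was not called, at 168, 123 and 249 RPKM against 285, 284 and 304 (adjusted p = 0.128). Of 20 cytosolic heat shock genes 1 was lower (Ahsa1, log2 change -0.31, adjusted p = 0.0476, and 0.15 without Con replicate 3) and 0 higher, whereas 13 were higher in Con-FMT than in Con. All 38 cytosolic ribosomal protein genes had a negative log2 change, with a median of -0.26 and 4 called lower, for example Rps14 at 299, 302 and 299.8 RPKM against 353, 381 and 422 (log2 change -0.36, adjusted p = 0.0343), and 0 of the 4 kept their call without Con replicate 3.

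Detoxification genes were called in both directions. Of 26 cytochrome P450 genes of families 1 to 3, with their reductase, 4 were higher and 3 lower. Cyp2e1, which oxidizes ethanol and ketones, was at 6513, 6274 and 5701 RPKM in A10-FMT and 1755, 2572 and 2221 in Con (log2 change 1.51, standard error 0.15, adjusted p = 2.82e-04 from limma), and 4009.5, 3649.7 and 3014 in HS. Por, the reductase that supplies electrons to the P450 enzymes, was at 148, 121 and 102 RPKM against 37.6, 43.6 and 40.9 (log2 change 1.57, adjusted p = 0.00456). Cyp3a11, a target of the xenobiotic receptor PXR, was lower at 516, 668 and 440.2 RPKM against 1709.6, 2585 and 2082 (log2 change -1.97, adjusted p = 0.012), with the limit that Cyp3a genes are close paralogs. Cyp2r1, a vitamin D hydroxylase, was lower too, at 1.24, 2.35 and 2.24 RPKM against 4.88, 5.88 and 5.75 (log2 change -1.16, adjusted p = 0.00392). Of 37 conjugation enzymes 7 were lower, all of them glutathione transferases or Ugt2b38, and 3 sulfotransferases were higher. Leaving out Con replicate 3 left 3 lower (Gstm3, Gstt3 and Ugt2b38) and 1 higher (Sult2a8). Gstm3 was at 26.1, 11.1 and 15.3 RPKM against 103, 83.2 and 93.1 (log2 change -2.42, adjusted p = 0.0047), Gstt3 at 5.69, 6.1 and 8.72 RPKM against 25.4, 23 and 25.2 (log2 change -1.72, adjusted p = 0.00181), and Sult2a8 at 546, 538 and 494 RPKM against 292, 371 and 329 (log2 change 0.67, adjusted p = 0.00392). The same reservation on shared reads holds for the transferases of 1 family.

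Bile acid and retinoid genes were mixed. Of 21 bile acid genes 4 were higher and 1 lower. The higher genes were transporters. Abcb4, the phospholipid pump of the canaliculus, was at 95.6, 76.1 and 72.6 RPKM in A10-FMT and 36, 33 and 34.7 in Con (log2 change 1.20, adjusted p = 0.00453 from limma), and Slco1b2, an uptake carrier, at 335, 279.6 and 325 RPKM against 193, 192 and 188 (log2 change 0.71, adjusted p = 0.0027). Cyp2c70, which makes the muricholic acids of mice, was lower at 176, 162 and 215 RPKM against 618, 590.5 and 596 (log2 change -1.71, adjusted p = 0.0042). Of 20 retinoid genes 4 were higher and 3 lower. The retinoic acid hydroxylase gene Cyp26a1 (chr19:37697798-37701536, forward strand), itself induced by retinoic acid, was at 1.5, 1.5 and 0.96 RPKM in A10-FMT and 35, 32.1 and 38.4 in Con (log2 change -3.97, adjusted p = 0.00524), a ratio of group means of 0.0376. Its HS libraries were at 1.1, 8.77 and 27.5 RPKM and spread from the level of A10-FMT nearly to that of Con. Aldh1a7 was at 17.6, 10.9 and 14.3 RPKM against 74.1, 62.6 and 73.1 (log2 change -2.24, adjusted p = 1.64e-04) and Rdh16 was higher at 24.1, 18.5 and 17.1 RPKM against 5.65, 13.5 and 9.03 (log2 change 1.07, adjusted p = 0.0146), but 0 of the 4 higher retinoid genes kept their call without Con replicate 3 and 2 of the 3 lower genes did.

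The remaining large changes belonged to no single pathway. Rgs16, a regulator of G protein signalling, was at 30.3, 37.9 and 31.2 RPKM in A10-FMT and 0.52, 1.91 and 1.59 in Con (log2 change 3.91, adjusted p = 0.00268 from limma), and was at 2.37, 1.44 and 3.53 RPKM in HS. Cck, which encodes the gut hormone cholecystokinin, was at 57.9, 31.1 and 28 RPKM against 1.35, 3.39 and 2.16 (log2 change 3.57, adjusted p = 0.00101) and at 42.4, 28.9 and 50.6 RPKM in HS. Mfsd2a, a transporter of lysophosphatidylcholine, was at 17.8, 31.4 and 35.8 RPKM against 0.89, 2.36 and 1.28 (log2 change 3.53, adjusted p = 0.00342). Rgs16 was low in HS and called against it (log2 change 3.35, adjusted p = 0.00503), whereas Cck and Mfsd2a were not called against HS, where Mfsd2a was at 46.1, 37.7 and 7.19 RPKM. Among lower genes, Tubb2a, a beta tubulin with a close paralog, was at 14.4, 17.9 and 14.8 RPKM against 98.7, 133 and 122 (log2 change -2.83, adjusted p = 0.00111) and at 90.8, 95.5 and 129 in HS. Raet1d, a stress ligand of the natural killer cell receptor NKG2D from a family of similar genes, was at 4.01, 2.29 and 1.25 RPKM against 16.7, 31.1 and 23 (log2 change -2.84, adjusted p = 7.79e-04) and at 0.79, 3.27 and 2.28 in HS. Tubb2a was thus near Con in HS and Raet1d near A10-FMT.

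Of 26 genes of NAD and one-carbon metabolism, a list that includes choline use, 3 were higher and 4 lower, and 2 and 3 without Con replicate 3. Chka, the kinase that starts phosphatidylcholine synthesis, was at 4.86, 12.8 and 6.54 RPKM in A10-FMT and 44.1, 52.5 and 49.5 in Con (log2 change -2.55, adjusted p = 0.0027 from limma). Slc44a1, a choline transporter, was at 7.66, 8.46 and 6.28 RPKM against 16.6, 18.2 and 16.3 (log2 change -1.10, adjusted p = 2.16e-04). The HS libraries of Slc44a1, at 7.69, 8.77 and 9.18 RPKM, were near the level of A10-FMT. Nampt, the enzyme that salvages nicotinamide for NAD, was higher at 18.4, 17.4 and 14 RPKM against 7.43, 9.23 and 8.13 (log2 change 0.92, adjusted p = 7.13e-04). Cdkn1a, the p53 target that encodes the cell cycle inhibitor p21, was at 3.82, 2.89 and 3.57 RPKM in A10-FMT, 11.3, 11.9 and 12.1 in Con and 34.9, 29.7 and 19.8 in HS. It was the 1 lower gene of 14 in the cell cycle list, where 0 were higher. Its level was lower than Con in A10-FMT (log2 change -1.53, adjusted p = 0.00527) and higher than Con in HS (log2 change 1.15, adjusted p = 0.0245), and the test of A10-FMT against HS gave -2.69 (adjusted p = 6.82e-04). Tfrc, the transferrin receptor, was at 3.01, 2.3 and 3.49 RPKM against 6.06, 6.23 and 6.39 (log2 change -0.89, adjusted p = 0.00417).

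Some of the genes that the study named or whose protein it measured in liver were called against Con and others were not. Nr1h3, the gene of the oxysterol receptor LXR alpha, was at 42.1, 40.5 and 39.6 RPKM in A10-FMT and 37.3, 41.2 and 41.3 in Con (log2 change 0.03, standard error 0.08, adjusted p = 0.877 from limma). Acox2, an oxidase of bile acid side chains, was at 92.8, 80.3 and 84.3 RPKM against 70.8, 97.9 and 84.9 (adjusted p = 0.919). The libraries of the groups overlapped in both genes. Cyp7a1, the rate-limiting enzyme of bile acid synthesis, was at 40.5, 34.8 and 37.4 RPKM against 30.7, 24.3 and 27.5 without overlap (log2 change 0.44, standard error 0.55, adjusted p = 0.671), and its HS libraries, at 5.36, 45.7 and 22.5 RPKM, spread widely. Nr1h4, the bile acid receptor FXR (log2 change 0.36, adjusted p = 0.129), Acaa2 (0.44, adjusted p = 0.102) and Bax (-0.26, adjusted p = 0.351) did not pass the test either. The called genes given here act in lipid oxidation, redox balance and retinol transport. Acaa1a, a peroxisomal thiolase, was called higher at 142, 131 and 128 RPKM against 68.9, 90.6 and 79.2 (log2 change 0.75, adjusted p = 0.0136, and 0.0539 without Con replicate 3). Gpx1, glutathione peroxidase, was higher at 2039.9, 2024 and 1997 RPKM against 1461, 1445 and 1472 (log2 change 0.47, adjusted p = 0.0115, and 0.0512 without Con replicate 3). Rbp4, the retinol carrier of blood, was higher (log2 change 0.50, adjusted p = 0.0397). None of these 3 kept its call without Con replicate 3, where Rbp4 had an adjusted p of 0.114. Dhrs9 and Bcl2 were below 1 RPKM in every library and were not tested.

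Side by side, the 38 gene lists show where A10-FMT stood relative to Con and where the other groups on the high-fat diet stood. Cholesterol synthesis was below Con in all 3 groups (median log2 change -1.62 in A10-FMT, -1.16 in HS and -2.04 in Con-FMT), and beta-oxidation above it. Urea cycle and amino acid catabolism had 5 higher and 2 lower genes of 30 in A10-FMT with a median of 0.04, against 13 higher and 0 lower in HS with a median of 0.57. Against HS, 12 were lower in A10-FMT, with a median of -0.47. Of all genes, 8.39% were higher in HS than in Con and 14.5% lower in A10-FMT than in HS, with medians of 0.14 and -0.16. With Con replicate 3 left out, 2 of these 30 genes were called higher and 0 lower. Of 17 glucocorticoid-responsive genes 5 were higher and 3 lower in A10-FMT, against 11 higher and 1 lower in Con-FMT, and without Con replicate 3 the counts in A10-FMT were 2 and 1. Mt2, a metallothionein, was at 18.6, 25.4 and 13.8 RPKM in A10-FMT and 311, 23.4 and 199.8 in Con. It was at 11.2, 19 and 20.2 RPKM in HS and 1599, 928 and 1152 in Con-FMT. The A10-FMT and Con libraries of Mt2 overlapped. Its call against Con (adjusted p = 0.0436 from limma) was lost without Con replicate 3 (adjusted p = 0.163). Of 25 antioxidant genes 4 were higher, among them Nfe2l2, the gene of NRF2 (log2 change 0.48, adjusted p = 0.0151 from limma), and 4 lower, among them Pgd (log2 change -0.82, adjusted p = 0.0106), an enzyme that makes NADPH. With Con replicate 3 left out, 2 antioxidant genes were higher and 1 lower, and Nfe2l2 lost its call (adjusted p = 0.0583).

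**Figure D5:**
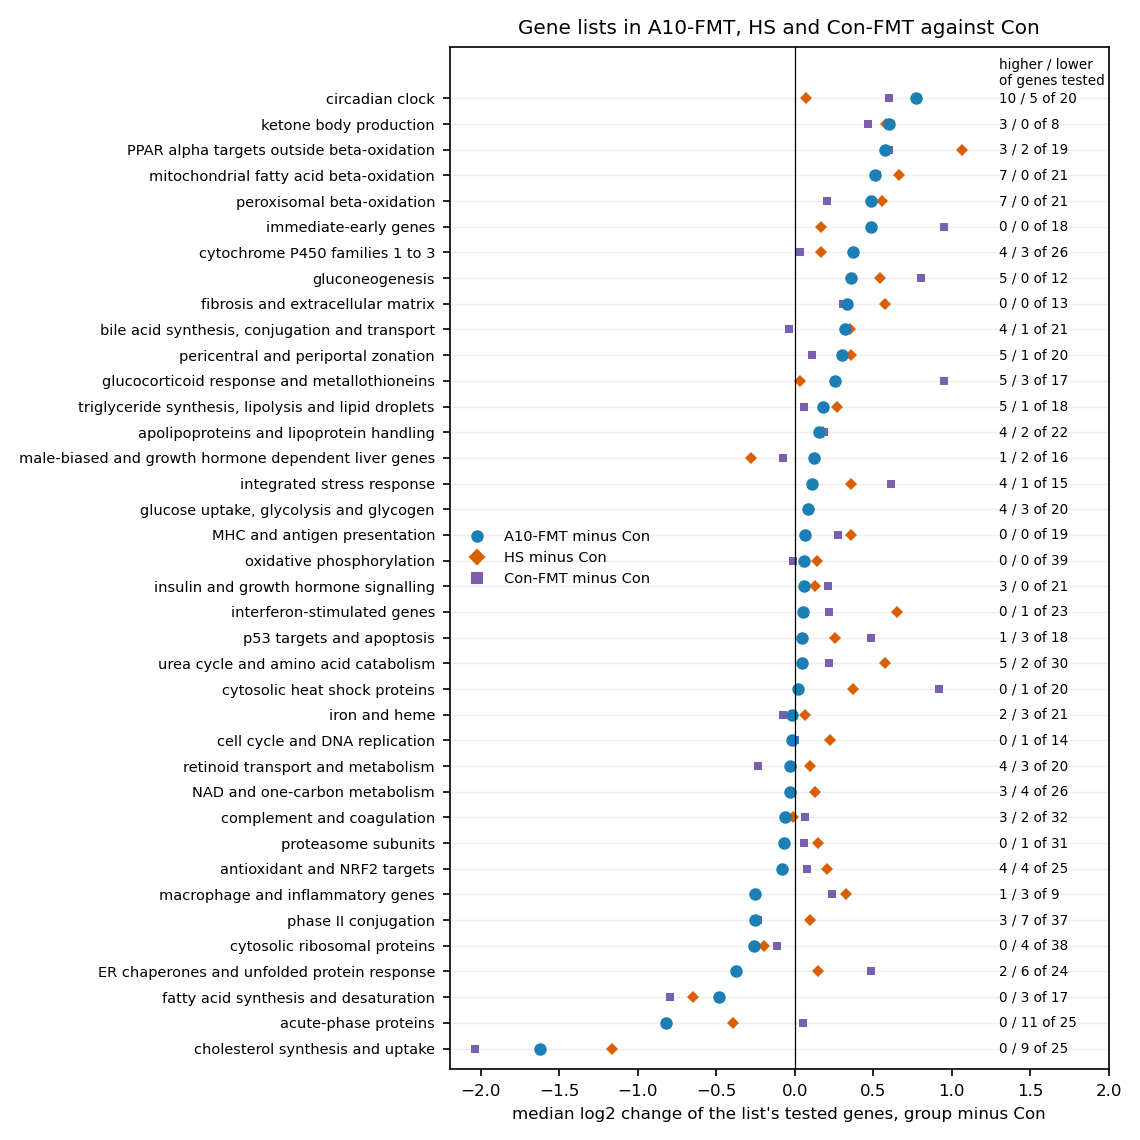
Median log2 change of each of the 38 gene lists against Con, for A10-FMT (blue circles, drawn on top), HS (orange diamonds) and Con-FMT (purple squares), on a linear log2 axis. Numbers at the right give the genes called higher and lower in A10-FMT of those tested. The cholesterol list is lowest in each group, and the acute-phase and endoplasmic reticulum chaperone lists are lower in A10-FMT than in the other 2.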

How the data were processed

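Total RNA of mouse liver was enriched for poly(A) transcripts and sequenced on an Illumina HiSeq instrument. Reads were aligned by the authors to reference genes using SOAPaligner, and the authors deposited a table of RPKM values per gene and library, while the submitters' processing notes name Bowtie 0.12.2 and mm10. How reads shared by close paralogs were assigned is not given in the sources used here, and 14 tested rows carry date-like or repeated symbols. The table gives no number of reads per library, so precision rests on 3 libraries per group. Libraries were grouped by their sample labels.

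From the deposited RPKM values, log2(RPKM + 1) was computed, and the 10033 genes that averaged 1 RPKM or more in the 6 libraries compared were kept. limma 3.58.1 (R 4.3.3, variance trend) fitted 1 mean for each group to 12 libraries, with Benjamini-Hochberg adjustment over all tested genes and a threshold of 0.05. On simulated data with independent normal noise, the fit recovered 182 of 200 genes with an added log2 change of 1. Of the 10033 genes simulated, 9 of those left unchanged were called falsely. The simulation held no library like Con replicate 3 and no outlying library, so it does not give the rate of false calls in these data. The members and the 38 gene lists were chosen with earlier results of these data known. The text names the 10 called genes with the largest change in each direction among those whose groups do not overlap and whose higher group averages at least 5 RPKM, up to 4 called genes per list and direction, the first 2 members of a list without a call, and the genes of the study. Some of these genes are not reported here. The following genes were chosen after their values were seen: Acat2, Apcs, Atf3, Bhlhe40, Clock, Cry2, Csnk1d, Cyp4a10, Cyp4a14, Egr1, Fasn, Fga, Fgg, Foxo1, Hlf, Hspa5, Jun, Lss, Per2, Rora, Sc5d, Srebf1, Srebf2, Thrsp, Tm7sf2, Ugt2b38, Usp18 and Usp2. Gene positions are from GENCODE M21 on GRCm38 (9936 of 10033 symbols found) and promoter windows from RefSeq on GRCm38.p6. Figures were drawn with matplotlib 3.10.9. The alternatives changed the pseudocount, the filter, the scaling, the libraries in the fit, the variance trend, a replicate block and each replicate in turn.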

Additional observations from a re-analysis of the deposited data

How the results depend on the processing

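The 489 higher and 545 lower genes were within 1.5 times these counts for a pseudocount of 0.1, without a filter, with a mean of at least 5 RPKM, with the filter over 12 libraries, with the 6 libraries of A10-FMT and Con alone, with all 18 libraries and without a variance trend. Quantile normalization gave 779 higher genes. An adjusted p under 0.001 with a log2 change of at least 1 left 18 higher and 18 lower genes. Leaving out 1 replicate gave 200 to 437 higher and 210 to 451 lower genes. The higher count fell by more than 1.5 times without A10-FMT replicate 1 (208), A10-FMT replicate 2 (298), Con replicate 1 (239) or Con replicate 3 (200), and the lower count without A10-FMT replicate 1 (348), A10-FMT replicate 2 (306), A10-FMT replicate 3 (336), Con replicate 2 (355) or Con replicate 3 (210), where fewer samples were fitted. Median scaling without Con replicate 3, chosen after seeing the data, gave 331 higher and 293 lower genes. Same-numbered libraries of A10-FMT and Con had correlations of -0.03, 0.07 and 0.04 between their deviations from the group means. With 3 libraries per group these values cannot decide whether the libraries were paired. A replicate block gave 415 higher and 483 lower genes. Of 154 named called genes, 137 could be tested with a mean of at least 5 RPKM and 153 with the filter over 12 libraries. In the settings where each was tested, none changed direction, 78 stayed called throughout, and 73 lost their call without Con replicate 3. The number of reads is not known, so the counting error of low genes cannot be given.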
